A study of Canis lupus familiaris with 8 samples.

Results

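Among the miRNAs measured in the serum of Doberman Pinschers, those known mainly from leukocytes were examined: miR-142, miR-223, miR-150, miR-155, miR-146a and miR-146b. The array lists canine (cfa) and murine (mmu) miRNAs separately, and every listing of these miRNAs was taken, with or without an arm in its name and without the starred partner strands. This gave 10 of the 1224 miRNA names on the array, 6 canine and 4 murine, with 400 of the 48960 features. Serum RNA of 4 Doberman Pinschers with dilated cardiomyopathy (DCM), labelled DoCM5 to DoCM8, and of 4 healthy Doberman Pinschers, labelled Con1 to Con4, was hybridized to 8 one-colour arrays of 1 slide. The dogs were client-owned pets, aged 7 to 11 years according to the labels, although the study describes a dog of the DCM group as younger than that. DCM, a disease in which the left ventricle dilates and contracts poorly, was in its occult stage, without clinical signs seen by the owners. The dogs of the control group had no sign of cardiac disease. All dogs of the DCM group received pimobendan, an ACE inhibitor and an antiarrhythmic drug, so that disease and treatment cannot be told apart.

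miR-142 and miR-223 come from genes that are active almost only in blood cells. miR-142 is made in nearly all leukocytes, and its hairpin yields a mature miRNA from each arm, named 5p and 3p. miR-223 is abundant in neutrophils and monocytes, while miR-150 is abundant in mature lymphocytes. miR-155 and miR-146a rise when lymphocytes and macrophages are activated, and miR-146a and miR-146b restrain signalling from Toll-like receptors. Serum holds such miRNAs outside of cells, in vesicles and protein complexes. In serum, release from more cells of a type and release of more RNA per cell cannot be told apart. All 6 canine miRNAs have a gene in the RefSeq annotation of the canine assembly UU_Cfam_GSD_1.0. There MIR142 lies beside TSPOAP1, MIR223 beside VSIG4 and MIR155 beside MRPL39.

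The signal of a feature is its background-subtracted intensity, and each miRNA name has 40 features on the array. The mean signal per name was normalized between arrays with the vsn model, which gives values on a generalized log2 (glog2) scale, in which a difference of 1 is about a 2-fold change. No feature was saturated, and between 10817 and 14000 features per array were well above background. The array labelled DoCM5 stood apart: its correlation with the remaining arrays across detected names had a median of 0.924, and this median was 0.957 to 0.968 for the others. The study left out an array it calls DoCM8, so that the main results are given for all 8 arrays and also without DoCM5 and without DoCM8. Row 1 of the slide held the DCM arrays and row 2 the control arrays, and an effect of the row cannot be told apart from that of the group. Each of the 4 slide columns held 1 array of each group.

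Of the 10 names, 9 were detected. All 40 features of cfa-miR-142, mmu-miR-142-3p, mmu-miR-142-5p, cfa-miR-146a, cfa-miR-150 and both miR-223 listings were well above background on each array. The features of the cfa-miR-155 listing were well above background in 28 to 40 of 40 cases per array. Those of the mmu-miR-155 listing reached this in 8 to 39 cases. The listing cfa-miR-146b was not detected, with 2 features well above background on Con1, 1 on DoCM5 and 0 on the other arrays. The repeated features of a probe differed little, with a median coefficient of variation of 5.47% for mmu-miR-142-3p and 4.91% for cfa-miR-223, but of 16.1% for cfa-miR-155 and 22.6% for mmu-miR-155.

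mmu-miR-142-3p was higher in DCM serum, and it was the only one of the 9 detected names past the limits of the study's methods, an unadjusted p under 0.05 and a fold change over 1.5. Its normalized signal was 8.32 on DoCM5, 7.33 on DoCM6, 7.69 on DoCM7 and 8.00 on DoCM8. It was 7.01 on Con1, 6.33 on Con2, 6.87 on Con3 and 6.01 on Con4. Each DCM array thus lay above each control array, the nearest being DoCM6 and Con1. The DCM group had a mean of 7.84 ± 0.42 (SD, n = 4) and the control group one of 6.55 ± 0.47 (SD, n = 4), a log2 fold change of 1.28 (SE 0.33, 95% interval 0.57 to 1.996), or 2.43-fold. The unadjusted p from limma was 0.00208, the adjusted p over all 438 detected names 0.456, and the exact permutation p 0.0286, which is the smallest that 4 against 4 arrays can give. By its p the name ranked 2 of 438, after murine miR-144*. Before normalization the signals of the groups overlapped, the lowest of the DCM arrays being 124 on DoCM7 and the highest of the control arrays 175 on Con3. The median log2 signal of the detected names ran from 3.68 to 5.09 over the DCM arrays and from 3.93 to 4.85 over the control arrays, and these ranges overlapped.

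**Figure D1:**
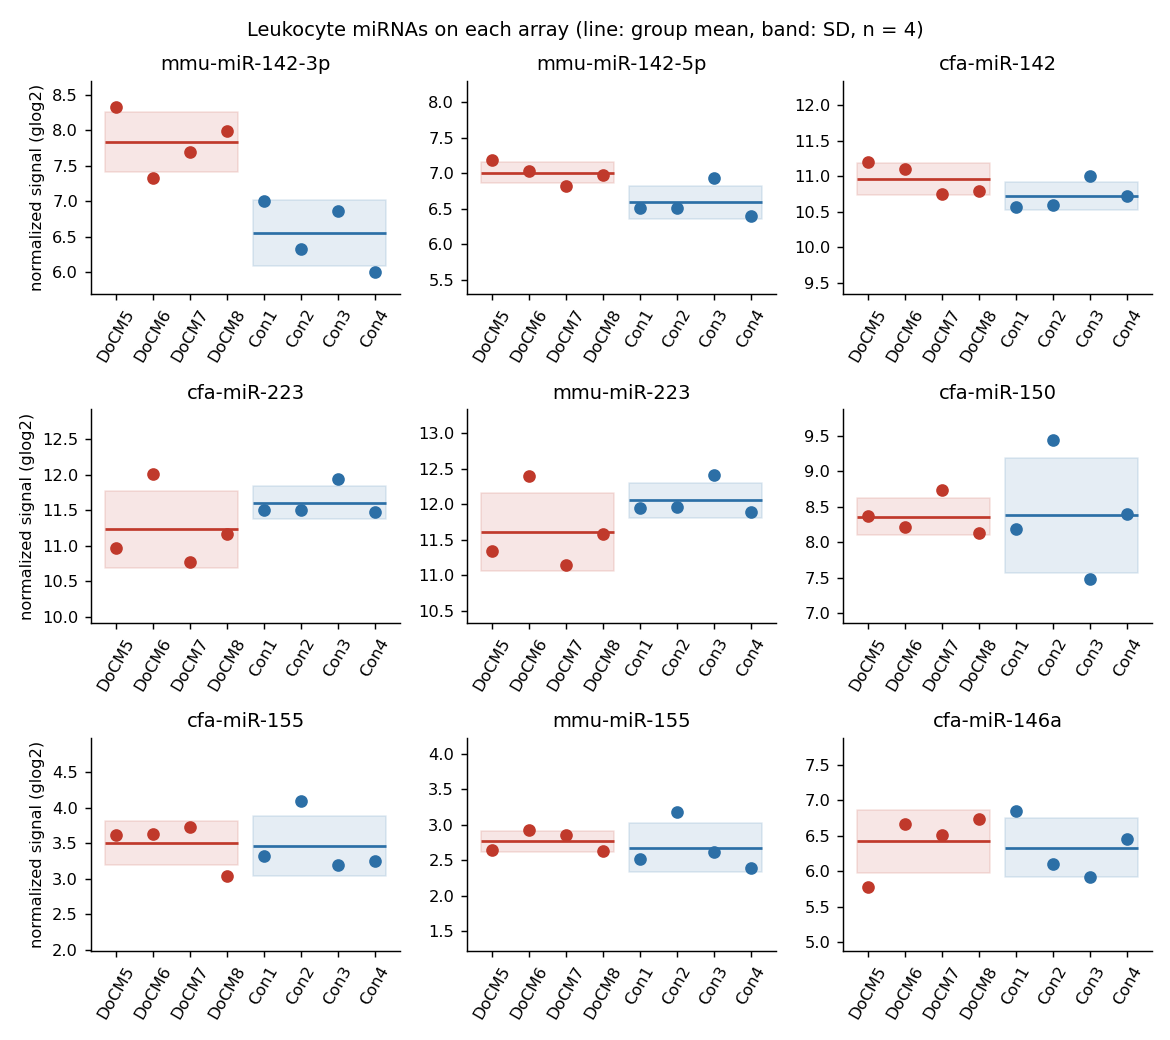
Normalized signal (glog2) of the 9 detected leukocyte miRNA names on each array; red points are DCM arrays, blue points control arrays, lines are group means and bands the SD (n = 4). The panels span ranges of equal width. In mmu-miR-142-3p the lowest DCM array, 7.33, lies above the highest control array, 7.01, while the groups overlap in the other panels.

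The background against which this call stands is 17 of 438 detected names (3.88%) past both limits, 8 of them higher in DCM (1.83%) and 9 lower. This split moved when 1 array was left out, from 4 higher and 16 lower without Con4 to 15 higher and 7 lower without Con3. The groups did not overlap for 12 names (2.74%), of which 7 were higher in DCM (1.6%). No detected name passed the limma test after adjustment at 0.05 (0%), with 18 at an unadjusted p under 0.05 (4.11%), and the lowest adjusted p was 0.399. Over the 9 leukocyte names, 6 differences were above 0 and 3 below, with a median of 0.09 against a median of -0.00067 over all detected names.

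The difference in mmu-miR-142-3p was also past the limits without the array labelled DoCM5 or DoCM8. Without DoCM5 the log2 fold change was 1.10 (SE 0.27) with a limma p of 0.00303, and without DoCM8 it was 1.21 (SE 0.38) with a limma p of 0.00837. In these sets 4.34% and 2.74% of the detected names passed both limits. The groups did not overlap in either set for mmu-miR-142-3p, which held for 8.45% of the detected names without DoCM5 and 4.34% without DoCM8. The DCM array exceeded the control array of its slide column by 0.82 to 1.99, and that it did so in each column follows from the separation of the groups. The 2 probes of the name gave log2 fold changes of 1.29 and 1.35 when analysed separately. Over all 8 arrays mmu-miR-142-3p varied more than most names, its SD of 0.80 exceeding that of 90.9% of the detected names, whose median SD was 0.49.

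mmu-miR-142-5p, the other arm of the hairpin, was less variable, and its group difference did not pass the limits. Its normalized signal was 7.19, 7.04, 6.83 and 6.98 on DoCM5 to DoCM8 and 6.51, 6.51, 6.93 and 6.40 on Con1 to Con4. Con3 lay above DoCM7, and the remaining control arrays lay below all DCM arrays. The log2 fold change was 0.42 (SE 0.26, 95% interval -0.14 to 0.98) with a limma p of 0.131 and an exact permutation p of 0.0571. The interval includes 0 and also changes above the 1.5-fold limit. Over the alternative settings the value ran from 0.29 to 0.70, the highest with 75th percentile scaling over all names (limma p 0.0737). The lowest came with normexp correction and quantile normalization. There the limma p was 0.0157 (adjusted 0.848), but the change stayed under 1.5-fold.

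The listing cfa-miR-142, whose name gives no arm, was the least variable of the detected leukocyte names. Its normalized signal was 11.19, 11.10, 10.75 and 10.79 on DoCM5 to DoCM8 and 10.56, 10.59, 10.999 and 10.72 on Con1 to Con4. The groups overlapped, with Con3 between the higher and the lower pair of DCM arrays. The log2 fold change was 0.24 (SE 0.26, 95% interval -0.33 to 0.81) with a limma p of 0.371 and an exact permutation p of 0.171. Over the alternative settings it ran from 0.13 with array weights to 0.46 with outlier-flagged features kept and 0.54 with 75th percentile scaling over all names, and passed the limits in none of them. Relative to the median of all names, the value with that scaling was 0.45.

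**Figure D2:**
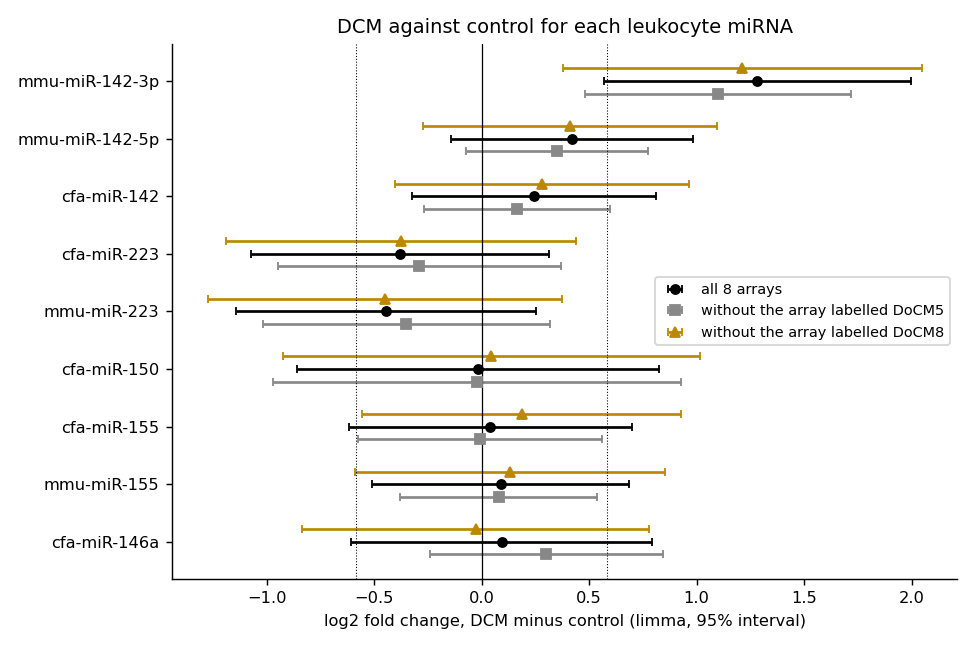
Log2 fold change (DCM minus control) of each detected leukocyte miRNA name from limma, with its 95% interval, for all 8 arrays (black), without DoCM5 (grey) and without DoCM8 (ochre). Dotted lines mark a 1.5-fold change. The intervals of mmu-miR-142-3p lie above 0 in the 3 sets, at 1.28, 1.10 and 1.21, and the intervals of the other names include 0.

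The arms of miR-142 were compared within each array. Since different probes are not comparable in level, only the change of the 3p minus 5p difference over arrays can be read. This difference was 1.14 on DoCM5, 0.30 on DoCM6, 0.86 on DoCM7 and 1.02 on DoCM8. In the control group it was 0.50 on Con1, -0.18 on Con2, -0.07 on Con3 and -0.39 on Con4. The ranges overlapped, since DoCM6 lay below Con1. The DCM mean was 0.83 ± 0.37 (SD, n = 4) and the control mean -0.03 ± 0.38 (SD, n = 4), which differ by 0.86. The exact two-sided permutation p was 0.0571, and 0.229 after Benjamini-Hochberg adjustment over the 4 comparisons of this kind that were planned and could be computed. With 4 against 4 arrays the smallest p of this test is 0.0286, and at the p of the other comparisons no adjusted p under 0.05 could be reached, so that the adjusted value says nothing about whether the arms changed equally. Without normalization between arrays the difference was 0.86 with the same permutation p. A scale factor of an array cancels in a difference within that array, so little change was possible here. When the median over features replaced the mean, it was 1.04, and the exact permutation p, not adjusted, was 0.0286. Within the slide columns the DCM array had the larger arm difference in 4 of 4 columns, by 0.48 to 1.41. This largely follows from the group values, since only DoCM6 and Con1 were in reverse order and they lay in different columns.

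**Figure D3:**
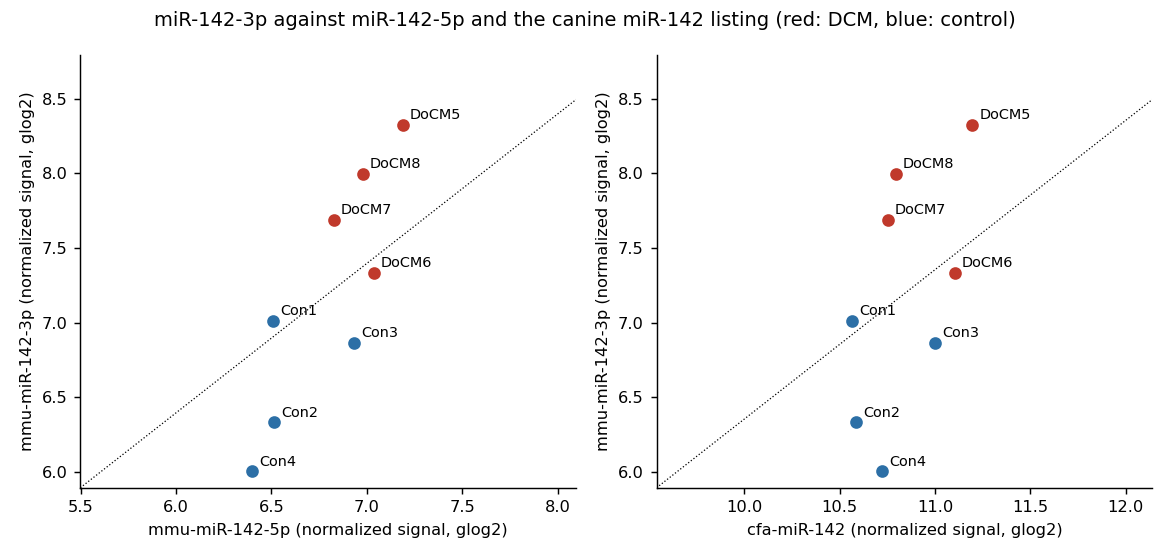
Normalized signal (glog2) of mmu-miR-142-3p against mmu-miR-142-5p (left) and against the canine listing cfa-miR-142 (right), 1 point per array, red for DCM and blue for control. The dotted line has a slope of 1 and passes through the means. Along the vertical axis the groups separate, from 7.33 upwards in DCM and from 7.01 downwards in the control group, whereas along the horizontal axes they overlap.

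The 3 names of miR-142 were compared over arrays, and no pair of them passed adjustment at 0.05 in the main setting. With no filter on dim features mmu-miR-142-5p passed with cfa-miR-142 (exact permutation p adjusted 0.00848) and with mmu-miR-142-3p (adjusted 0.0414), and without Con4 the first pair passed (adjusted 0.0393). For mmu-miR-142-5p and cfa-miR-142 Pearson's r was 0.87 over 8 arrays (exact permutation p 0.00933, adjusted 0.0964 over 36 pairs) and Spearman's rho 0.90 (exact permutation p 0.00456, adjusted 0.0821). With the 2 arrays farthest from the median of cfa-miR-142 left out, r was 0.73, and r within groups was 0.83. In each pair the 2 farthest arrays were those of the alphabetically first member alone, so the value depends on that choice. The arms had r of 0.84 (exact permutation p 0.0119, adjusted 0.0964) and rho of 0.79 (exact permutation p 0.0279, adjusted 0.251). Within groups this r was 0.54, and with the 2 farthest arrays left out it was 0.64. mmu-miR-142-3p and cfa-miR-142 had r of 0.54 (exact permutation p 0.166, adjusted 0.740) and rho of 0.60 (exact permutation p 0.132, adjusted 0.777). This r was 0.16 within groups and 0.24 without the 2 farthest arrays. The difference of mmu-miR-142-3p and cfa-miR-142, a comparison chosen after the values were seen, was 1.04 higher in DCM, with an exact permutation p of 0.0571 and overlapping groups.

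miR-223, the neutrophil and monocyte miRNA, did not pass the limits in either listing, and both DCM means lay below the control means. The canine listing had a normalized signal of 10.97, 12.01, 10.78 and 11.17 on DoCM5 to DoCM8 and of 11.51, 11.51, 11.95 and 11.48 on Con1 to Con4. DoCM6 was the highest of all 8 arrays, and the remaining DCM arrays lay below all control arrays. The log2 fold change was -0.38 (SE 0.32, 95% interval -1.07 to 0.31) with a limma p of 0.254 and an exact permutation p of 0.229.

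The murine listing of miR-223 gave 11.34, 12.39, 11.14 and 11.58 on DoCM5 to DoCM8 and 11.94, 11.97, 12.42 and 11.89 on Con1 to Con4. Its log2 fold change was -0.44 (SE 0.32, 95% interval -1.14 to 0.26), with a limma p of 0.192. Leaving out single arrays made the difference larger or smaller in both listings. With 75th percentile scaling over all names it shrank to -0.08 for cfa-miR-223 (limma p 0.837) and -0.14 for mmu-miR-223 (limma p 0.709). With normexp correction and quantile normalization it was -0.46 for mmu-miR-223 (limma p 0.0145, adjusted 0.848), under the fold limit. For cfa-miR-223 it was -0.29 there (limma p 0.173). Without DoCM6 the log2 fold change of mmu-miR-223 was -0.69 with a limma p of 0.0371 (adjusted 0.590), past both limits in a set where 29 of 438 names (6.62%) were, while that of cfa-miR-223 was -0.62 with a limma p of 0.0524. Without DoCM7 it was -0.25 for mmu-miR-223 (limma p 0.487) and -0.20 for cfa-miR-223 (limma p 0.588). The listings correlated with r of 0.998 and rho of 0.976 over 8 arrays (exact permutation p 7.44e-05 for r and 0.000397 for rho, adjusted 0.00268 and 0.0143 over 36 pairs), and with r of 0.995 without the farthest 2 arrays. This was the only 1 of the 36 pairs to pass adjustment at 0.05.

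cfa-miR-223 minus mmu-miR-223 ran from -0.41 to -0.36 in DCM and from -0.47 to -0.42 in the control group. These ranges did not overlap, although the means differed by only 0.06. The exact permutation p was 0.0286, or 0.0914 adjusted over all 8 differences computed, and the comparison was chosen after the values were seen. The p rose above 0.05 in 5 of the 11 alternative settings. Among these was the median over features, with which the means differed by 0.27 (exact permutation p 0.114).

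cfa-miR-150, the lymphocyte miRNA, had nearly equal group means and a wide spread among controls. Its normalized signal was 8.38, 8.21, 8.73 and 8.13 on DoCM5 to DoCM8. In the control group it was 8.19 on Con1, 9.44 on Con2, 7.48 on Con3 and 8.40 on Con4. All DCM arrays thus lay between the lowest and the highest control array. The DCM mean was 8.36 ± 0.27 (SD, n = 4) and the control mean 8.38 ± 0.81 (SD, n = 4), a log2 fold change of -0.02 (SE 0.39, 95% interval -0.86 to 0.83) with a limma p of 0.968. Leaving out single arrays gave values from -0.32 to 0.34. A 1.5-fold change in either direction lies within the interval.

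miR-155, which activated lymphocytes and macrophages express, was dim in both listings. The canine listing had a mean signal of 8.14 to 22.9 intensity units per array and a normalized signal of 3.61, 3.63, 3.73 and 3.05 on DoCM5 to DoCM8. On Con1 to Con4 it was 3.32, 4.09, 3.20 and 3.24. The highest value, on Con2, and the lowest, on DoCM8, left the groups overlapping. The log2 fold change was 0.04 (SE 0.30, 95% interval -0.62 to 0.70) with a limma p of 0.895. Leaving out single arrays gave values from -0.05 to 0.23, the highest without Con2.

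The murine listing of miR-155 had 2.64, 2.93, 2.86 and 2.63 on DoCM5 to DoCM8 and 2.52, 3.19, 2.61 and 2.40 on Con1 to Con4. Its log2 fold change was 0.09 (SE 0.27, limma p 0.754), and Con2 was again the highest array. It was 0.23 without Con2, -0.01 without Con4 and -0.24 with 75th percentile scaling over names well above background on all arrays. The median of all names was -0.18 with that scaling. The listings had r of 0.85 (exact permutation p 0.00942, adjusted 0.0964 over 36 pairs) and rho of 0.76 (exact permutation p 0.0368, adjusted 0.265), and with r of 0.80 without the 2 farthest arrays. With no filter on dim features r was only 0.30 (exact permutation p 0.477) and rho 0.33. cfa-miR-155 minus mmu-miR-155 had a DCM mean of 0.74 ± 0.24 (SD, n = 4) and a control mean of 0.78 ± 0.14 (SD, n = 4), with an exact permutation p of 0.743.

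cfa-miR-146a, an inhibitor of Toll-like receptor and NF-κB signalling, showed no group difference past the limits. Its normalized signal was 5.77, 6.67, 6.51 and 6.74 on DoCM5 to DoCM8 and 6.85, 6.10, 5.91 and 6.44 on Con1 to Con4. The lowest value of all arrays was that of DoCM5, and the highest that of Con1. The log2 fold change was 0.09 (SE 0.32, 95% interval -0.61 to 0.79) with a limma p of 0.777. Without DoCM5 it was 0.30 (SE 0.24, limma p 0.241), more than 1.5 times the value over all arrays, and without DoCM8 it was -0.03 (SE 0.37, limma p 0.941). With 75th percentile scaling over all names it was 0.36 (limma p 0.262), or 0.26 relative to the median of all names. For miR-146b no level was computed, since none of its features met the detection rule. The planned comparison of cfa-miR-146a with miR-146b within arrays could thus not be made.

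Myeloid and lymphoid miRNAs were set against each other within each array. miR-155 was a second partner of miR-223, but not a purely lymphoid one, since activated macrophages also express it. cfa-miR-223 minus cfa-miR-150 was 2.59, 3.80, 2.05 and 3.04 on DoCM5 to DoCM8 and 3.32, 2.07, 4.47 and 3.07 on Con1 to Con4. The control group alone covered 2.07 to 4.47, and the DCM arrays, from 2.05 to 3.80, were spread over most of this range. The group difference was -0.36 with an exact permutation p of 0.514, adjusted 0.686 over the 4 planned comparisons. It lay between -0.75 and 0.05 when single arrays were left out, and was 0.05 without Con3. cfa-miR-223 minus cfa-miR-155 had a DCM mean of 7.73 ± 0.63 (SD, n = 4) and a control mean of 8.15 ± 0.55 (SD, n = 4), a difference of -0.42 with an exact permutation p of 0.343, adjusted 0.686. With single arrays left out this difference lay between -0.65, without Con2, and -0.17, without DoCM7.

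**Figure D4:**
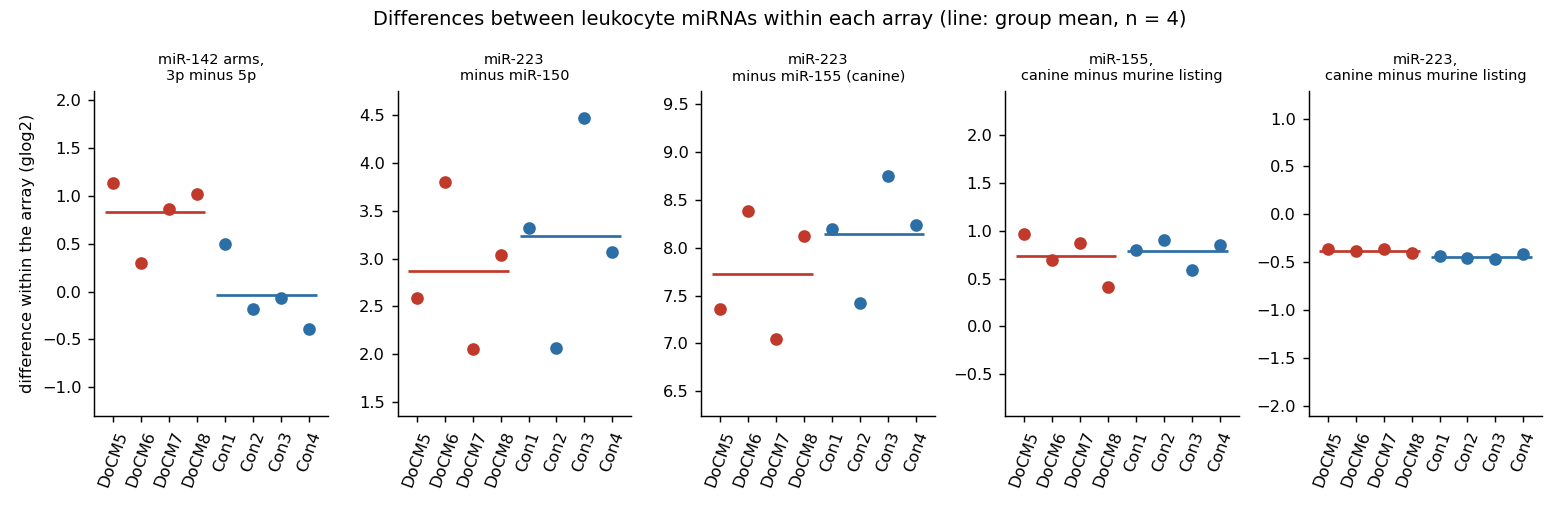
Differences (glog2) between leukocyte miRNAs within each array, red for DCM and blue for control, with lines at the group means (n = 4 each). The panels span ranges of equal width. The arm difference of miR-142 has group means of 0.83 and -0.03 with DoCM6 below Con1, while the differences of miR-223 to cfa-miR-150 and to miR-155 have ranges that overlap between the groups.

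Over arrays, cfa-miR-150 and cfa-miR-155 had r of 0.82 (exact permutation p 0.0134, adjusted 0.0964) and rho of 0.81 (exact permutation p 0.0218, adjusted 0.251). This r was 0.63 without the 2 farthest arrays and 0.82 within groups. cfa-miR-223 and cfa-miR-150 had r of -0.38 (exact permutation p 0.351, adjusted 0.943) and rho of -0.31 (exact permutation p 0.462, adjusted 1), with r of -0.61 without the 2 farthest arrays, -0.72 without Con2 and -0.12 without Con3. mmu-miR-142-3p and cfa-miR-223 had r of -0.53 (exact permutation p 0.185, adjusted 0.740) and rho of -0.52 (exact permutation p 0.197, adjusted 0.875). This r was -0.28 within groups, -0.14 without the 2 arrays farthest for cfa-miR-223 and 0.10 with no filter on dim features. For mmu-miR-142-3p and mmu-miR-223 r was -0.56, and -0.55 without the 2 arrays farthest for mmu-miR-142-3p. None of these pairs passed adjustment over the 36 pairs.

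**Figure D5:**
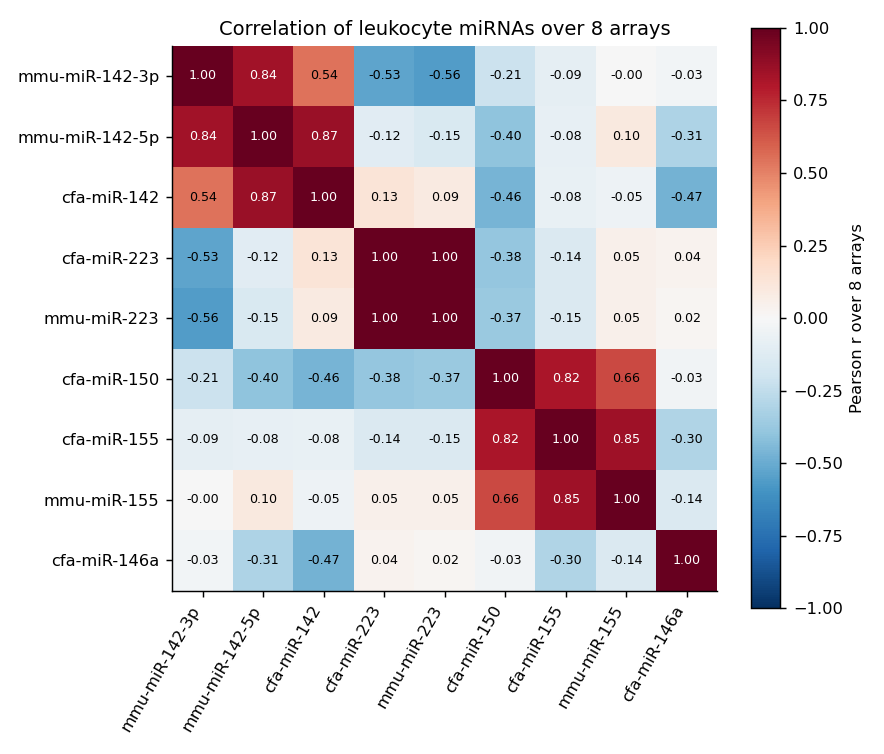
Pearson's r of normalized signal between each pair of the 9 detected leukocyte miRNA names over 8 arrays, from blue (-1) to red (1). The listings of miR-223 stand at 0.998, the names of miR-142 between 0.54 and 0.87, and cfa-miR-150 with cfa-miR-155 at 0.82.

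The names most alike in pattern were sought among the 429 other detected names by Pearson's r over 8 arrays, as a description. For mmu-miR-142-3p these were canine miR-219 (r 0.90), canine miR-499 (r 0.89), a miRNA of a myosin gene of heart and slow muscle, and murine miR-330* (r 0.88). The log2 fold change was 0.73 for miR-219, past the limits (limma p 0.0366), and 0.69 for miR-499 and 0.52 for miR-330*, which did not pass. Names chosen for their likeness to mmu-miR-142-3p, whose groups did not overlap, were bound to lean upwards too. Their fold changes thus say nothing further. For cfa-miR-223 they were murine miR-1966 (r 0.96), miR-129-1-3p (r 0.96) and miR-1892 (r 0.93). For cfa-miR-150 they were murine miR-139-5p (r 0.85), miR-3058* (r 0.81) and miR-1945 (r 0.79).

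Of 22 further names for miRNAs abundant in leukocytes, such as miR-21, miR-23a, miR-29 and miR-342, 16 were detected. Canine miR-21 passed the limits upwards (log2 fold change 0.68, SE 0.27, limma p 0.0281), and none passed downwards. This is 1 of 16 names, beside 3.88% of all detected names, and the median over the 16 was 0.10. miR-21 is made in many cell types and rises with myeloid activation and in fibroblasts. Among the others, which did not pass the limits, log2 fold changes ran from -0.53 for canine miR-125b to 0.46 for canine miR-29b (limma p 0.376 and 0.120). The groups did not overlap for canine miR-21 and canine miR-29b, both higher in DCM, as for 2.74% of all detected names. Canine miR-342, a lymphocyte miRNA, stood at 0.11 and canine miR-181a, abundant in thymocytes, at -0.14. Murine miR-181a lay the other way from canine miR-181a, at 0.38 (limma p 0.298). Murine miR-181b, whose canine listing was not detected, stood at 0.46 (limma p 0.174).

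Other blood cells also release miRNAs into serum, and their levels are given beside the result for mmu-miR-142-3p. Of 7 erythrocyte names, all detected, canine miR-144 (log2 fold change 0.76, SE 0.33, limma p 0.0417) and murine miR-144 (0.98, SE 0.31, limma p 0.00799) passed the limits upwards, beside 1.83% of all detected names. The groups did not overlap for murine miR-144. Murine miR-144*, its partner strand and not in the list, also passed upwards, at 1.36 (SE 0.31, limma p 0.000911, adjusted 0.399). Its p was the lowest of all detected names. The 2 listings of miR-92a stood at -0.28 (canine, limma p 0.390) and -0.23 (murine, limma p 0.465), and the median of the list was 0.05. The erythrocyte miRNA miR-451, from the same cluster as miR-144, stood at 0.05 (limma p 0.857). The summed level of the list ran from 16.8 to 17.3 in DCM and from 16.9 to 17.3 in the control group. This sum is nearly that of miR-451 alone (means 16.97 in DCM and 16.92 in the control group), so it could not show a change in miR-144. Of 8 platelet names, all detected, 0 passed in either direction, beside 3.88% of all detected names, a share at which 0 of 8 says nothing about the list. Their summed levels were 11.4 to 12.5 in DCM and 11.7 to 12.03 in the control group. Canine miR-191, with means of 11.3 in DCM and 11.4 in the control group, made up most of this sum. The part of these cells in the difference of mmu-miR-142-3p was not tested.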

How the data were processed

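Serum RNA of 4 dogs with DCM and 4 healthy dogs was measured on Agilent miRNA arrays. The authors deposited the output of Agilent Feature Extraction 10.7.3.1, as the submitters' processing notes name it, with a background-subtracted intensity per feature, not normalized between arrays, and detection flags. Their value table held the same intensities (largest difference 0).

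Control features and features with outlier flags on an array were left out. A feature was used if 2 or more of the 4 arrays of either group had it well above background (13423 features, 438 names). Means per name were normalized by vsn (own implementation, least trimmed squares quantile 0.9, 5 slices, 7 iterations) and compared with limma 3.58.1 in R 4.3.3, at p under 0.05 and fold over 1.5, and after Benjamini-Hochberg adjustment at 0.05. Permutation tests were exact and two-sided. The scripts were tested on simulated data, with the same spread for every name. Of 60 names changed by 2 on the log2 scale, 98.3% were recovered. With no name changed, 28 of 438 names passed the p and fold limits and 1 passed adjustment. Figures were drawn with matplotlib 3.10.9. With 4 arrays per group, the number of arrays limits the precision.

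The miRNAs and lists were chosen with earlier results of these data known. Named were all 10 names of the rule, the 3 names most like miR-142-3p, miR-223 and miR-150, and list members past the limits. The list members not past the limits, miR-376a and miR-144* were named after their values were seen. Alternatives covered the normalization, averaging, filter, outlier flags, array weights, single arrays left out and a block for the slide column. The labels name the dogs of each array separately, and each array was taken as 1 dog.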

Additional observations from a re-analysis of the deposited data

Results flagged for a closer look

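In 4 of 34 groups of 4 arrays a single array lay far from the other arrays of its group, by Dixon's test at its 95% critical value, where chance alone gives about 1.7. cfa-miR-155 was 4.09 on Con2, against 3.20 to 3.32 on the other control arrays. On Con3 cfa-miR-223 was 11.95, while Con1, Con2 and Con4 had 11.48 to 11.51. mmu-miR-223 was 12.42 on Con3, against 11.89 to 11.97, and since the listings measure nearly the same signal these are not independent. mmu-miR-142-5p minus cfa-miR-142 was -4.32 on Con4, against -4.07 to -4.06 on the other control arrays.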

How the results depend on the processing

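mmu-miR-142-3p was past both limits and higher in DCM in all 22 alternative settings, with log2 fold changes of 0.90 to 1.55, limma p of 0.00123 to 0.0167 and adjusted p of 0.162 to 0.997. The value table, 1 of these settings, held the same intensities and could give no other result. With DoCM5 and DoCM8 both left out, a setting added after the data were seen, it was 0.95. The other 8 detected names passed the limits in none of their settings, except mmu-miR-223 without DoCM6 (-0.69). The signs of cfa-miR-150, both miR-155 listings and cfa-miR-146a turned in some settings. The count of 17 of 438 names past the limits was 3 with normexp correction of the median signal together with quantile normalization (15 with quantile normalization alone). With no filter on dim features the count was 52, but of 1224 names tested. The count was 34 with array weights and 29 with DoCM5 and DoCM8 both left out. It ran from 12 to 29 with 1 array left out, the lowest without DoCM8 and the highest without DoCM6. With 75th percentile scaling over names well above background on all arrays, the median of all names shifted to -0.18 and the split was 7 higher and 16 lower, against 8 and 9, and 1 name, canine miR-376a, passed adjustment (adjusted p 0.0208); mmu-miR-142-3p was 1.28 there, 1.46 above that median. The difference of the miR-142 arms was 0.75 to 1.05 with 1 array left out, and 1.04, with an unadjusted permutation p of 0.0286, with the median of features. The group difference of miR-223 minus miR-150 ran from -0.75 to 0.05 with 1 array left out. The number of correlated pairs was 3 with no filter and 1 to 2 with 1 array left out, 2 without Con4. The cause of these changes was not tested. miR-146a minus miR-146b gave no value. With the slide column, which is a position on the slide, as a block, 18 names passed and mmu-miR-142-3p was 1.28 (limma p 0.00285). The arrays of the groups share no replicate number, and none was used as a block. The number of arrays limits all results, and the low signal of miR-155 and miR-146b limits theirs.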

Other observations

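Of 5 starred names on the array, the partner strands of miR-223, miR-150, miR-155, miR-146a and miR-146b, only mmu-miR-150* was detected, with a log2 fold change of -0.03 (SE 0.39, limma p 0.942). Of 7 names of heart and muscle miRNAs, 4 were detected and 0 passed the limits, beside 3.88% of all detected names, a share at which 0 of 4 says nothing about the list. Canine miR-499, listed there and among the names most like mmu-miR-142-3p, stood at 0.69 (SE 0.33, limma p 0.0607), and canine miR-1 at 0.22 (SE 0.60, limma p 0.716). Canine miR-133b stood at -0.45 (SE 0.70, limma p 0.533) and canine miR-206 at -0.13 (SE 0.50, limma p 0.793), and the median of the 4 was 0.05. All 3 liver names were detected and 0 passed the limits, which likewise says nothing beside that share. Canine miR-122 stood at -0.69 (SE 0.59, limma p 0.266), miR-192 at 0.05 (limma p 0.854) and miR-194 at 0.18 (limma p 0.558), with a median of 0.05.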
